A study of Gallus gallus with 12 samples.

Results

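Translation initiation factors (eIFs) are the proteins that bring the small ribosomal subunit, the initiator tRNA and the capped end of an mRNA together and hand over a complete ribosome at the start codon. The genes that encode them were followed in ovarian follicles of laying hens, at 2 stages on either side of recruitment, the step at which a small follicle joins the graded series of yolk-filled follicles. Members were all genes whose symbol is EIF followed by a digit, which covers the families EIF1 to EIF6; 1 further symbol of this form was left out of the set and is not reported here. This gave 46 genes of 12470 named genes in the table of counts. All 46 were expressed well enough to be tested.

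The study sequenced polyadenylated RNA from follicle tissue of 6 hens aged 12 months. Each hen gave 1 library labelled Pre-recruitment and 1 labelled Pre-ovulatory F5, so there were 6 libraries of each stage from the same 6 birds, which are named here by their numbers. The labels give no treatment, strain or genotype. Counts on named genes summed to 20628640 to 29082988 per Pre-recruitment library and to 28044247 to 40887647 per F5 library. The tissue holds several cell types, and in bulk RNA fewer cells of a type and less RNA per cell cannot be told apart. Of the cell type markers used as a check, 9 of 16 tested granulosa markers were lower in F5 follicles and 3 higher, 12 of 12 smooth muscle markers were higher, and 19 of 22 tested oocyte and germ cell markers were lower. Theca markers were higher in 7 and lower in 2 of 11 tested, endothelial markers in 6 and 2 of 12, leukocyte markers in 1 and 0 of 12, and erythroid markers in 2 and 0 of 8. These calls used the TMM scaling described below, under which 32.9% of all genes tested were higher and 32.6% lower. With library totals alone, CDH5, TEK, SOX18, FLT1 (endothelial), LHCGR, PDGFRA (theca), TAL1, GYPC (erythroid), DES (smooth muscle) and KITLG (granulosa) lost their calls. KDR, TIE1, VWF (endothelial), GLI1 (theca), CD3E, CD74 (leukocyte), DDX4, ZP1 (oocyte and germ cell) and NR5A1 (granulosa) were then called lower. Some listed markers had no row in the table of counts. Rows were found for 23 of 32 oocyte and germ cell markers and 12 of 22 erythroid markers. Rows were also found for 13 of 15 leukocyte, 12 of 14 endothelial and 11 of 12 theca markers, and for all granulosa and smooth muscle markers. No marker with a row stood at 0 in every library, and the part of tissue makeup in the results below was not tested.

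Initiation runs in steps, and the results below follow them. eIF2 carries the initiator tRNA as a complex with GTP, eIF2B recharges eIF2, and kinases that phosphorylate eIF2 slow this recharging under stress. eIF4E holds the cap of the mRNA, eIF4G bridges it to eIF4A, an RNA helicase, and to eIF3 on the small subunit, and eIF4E-binding proteins keep eIF4E away from eIF4G. eIF1, eIF1A, eIF5 and eIF5B then settle the choice of the start codon and the joining of the large subunit. In growing oocytes many maternal mRNAs are stored untranslated, and in frogs, fish and mammals a second form of eIF4E, eIF4E1B, is known from the egg.

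Initiation factor genes passed the test about as often as other genes, mostly with small changes, and the 2 that changed by over 2-fold fell. With edgeR's quasi-likelihood test, 22 of the 46 rose in F5 follicles and 8 fell at a Benjamini-Hochberg adjusted p under 0.05, and 16 did not pass. Risers made up 47.8% of the members, beside 32.9% of all 11195 genes tested, and fallers 17.4% beside 32.6%. Called genes of either direction made up 65.2% of the members and 65.5% of all genes. Of the 30 called members, 6 changed by at least 1.5-fold and the others by less. Changes of at least 1.5-fold were thus found in 13.0% of members against 32.1% of all genes. Only EIF4E1B and EIF4ENIF1 passed 2-fold, both downwards (4.35% of members, 14.5% of all genes). The levels of the 2 stages did not overlap for 18 members (39.1%, beside 43.5% of all genes). F5 follicles had the higher levels for 13 of these (20.7% of all genes did so) and the lower for 5 (22.8% of all genes).

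The balance of rises and falls depended on how libraries were scaled. Levels are given as CPM, a gene's count scaled to a fixed library total, after scaling with TMM, the trimmed mean of M-values, which places the typical gene level between libraries. With library totals alone, the median log2 change of all genes moved from 0.02 to -0.21 and that of the members from 0.15 to -0.09. The members' median lay 0.13 above that of all genes under either scaling. With library totals 6 members rose (18.5% of all genes did) and 19 fell (46.4% of all genes, and 64.9% were called in either direction). Directions are therefore given relative to the typical gene. Called under both scalings were 6 members that rose, EIF1AX, EIF3J, EIF4A2, EIF4E, EIF4G2 and EIF4H, and 8 that fell, EIF1B, EIF2B4, EIF2B5, EIF3A, EIF4E1B, EIF4EBP3, EIF4ENIF1 and EIF5B. These were 13% and 17.4% of the members, below the 18.5% and 32.6% of all genes tested that were so called. The 46 genes together took 1.202% ± 0.0103 of all named counts before recruitment and 1.196% ± 0.00888 at the F5 stage (SD over 6 birds). On this scale of library totals the sum was nearly the same while its parts shifted. TMM factors ran from 1.03 to 1.14 before recruitment and from 0.859 to 0.968 at the F5 stage. A lower factor raises scaled levels, so after TMM scaling the sum was higher in F5 follicles.

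**Figure D1:**
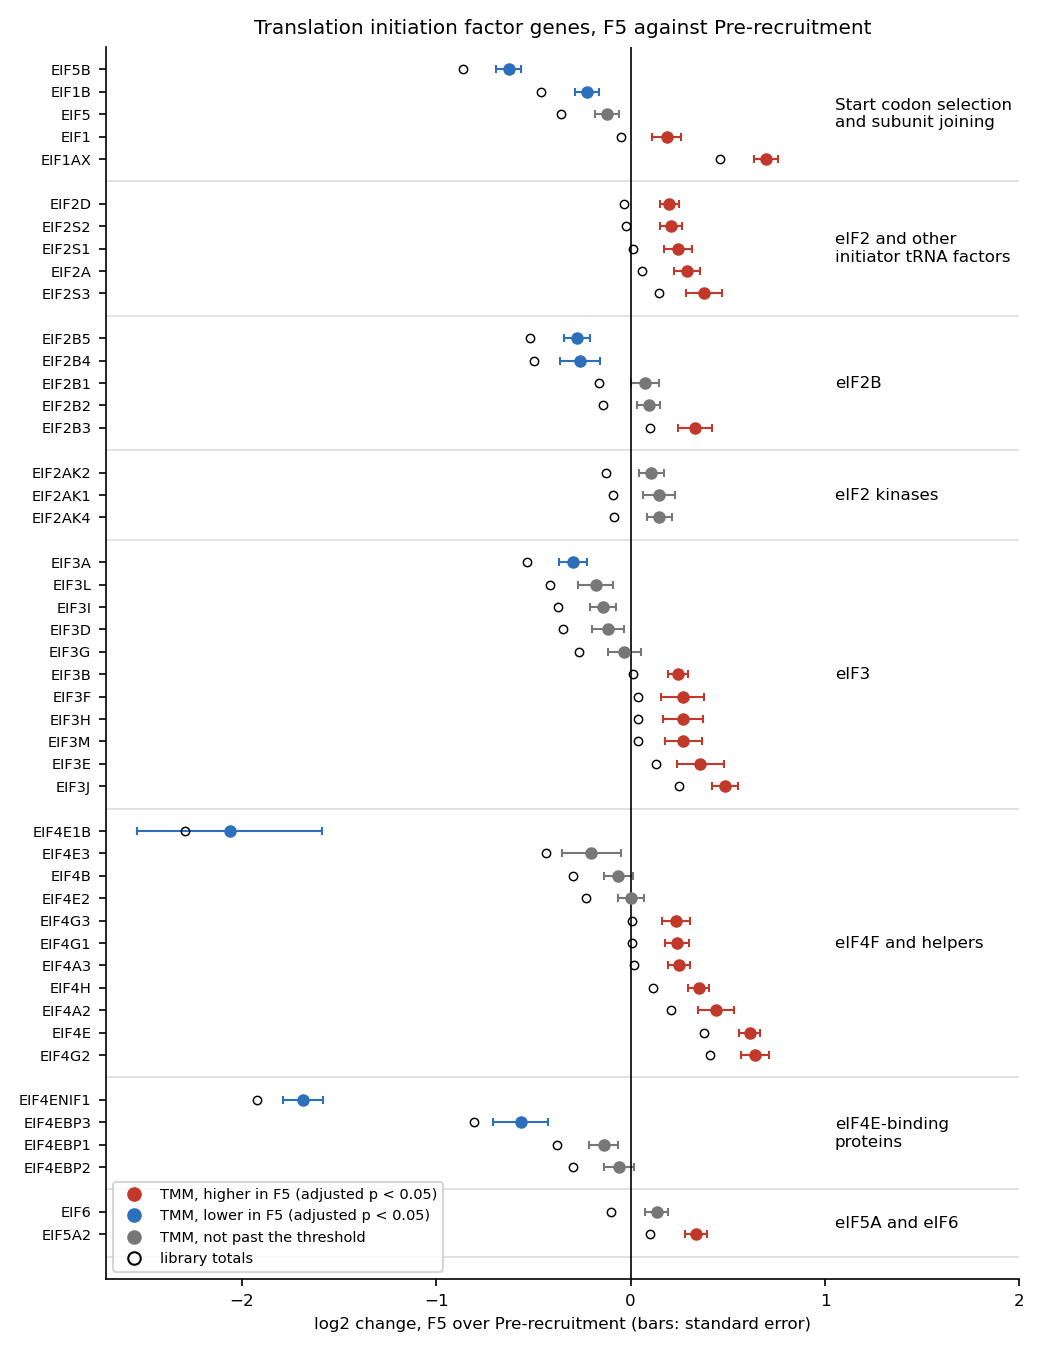
Log2 change in F5 over Pre-recruitment follicles for each of the 46 genes, grouped by role, with filled points and standard error bars for the TMM-scaled fit and open circles for library totals. Filled points mark the 22 genes that were higher (red), the 8 that were lower (blue) and the 16 that did not pass the test (grey); EIF4E1B and EIF4ENIF1 lie farthest from 0, and the open circles lie to the left of the filled points.

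Genes of eIF4F, its helpers and their relatives held rises of EIF4E and EIF4G2 and the deepest fall of the set, that of EIF4E1B. Among the 11 tested genes of this group, EIF4G2 and EIF4A3 included, 7 rose, 1 fell and 3 did not pass (median log2 change 0.24). With library totals 4 rose and 4 fell (median 0.01), since EIF4A3, EIF4G1 and EIF4G3 were no longer called and EIF4B, EIF4E2 and EIF4E3 were called lower. Beside this and the other role groups, 32.9% of all genes tested rose and 32.6% fell, or 18.5% and 46.4% with library totals. No role group was tested against other genes. EIF4E encodes the cap-binding protein itself. Its level ran from 90.1 to 110.5 CPM before recruitment (median 98.5) and from 142 to 159 CPM in F5 follicles (median 152). Every F5 library was above every Pre-recruitment library. The rise was 1.53-fold (log2 change 0.61, SE 0.05, edgeR adjusted p = 3.60e-07) and was seen in 6 of 6 birds. EIF4G2, also called DAP5, is a relative of eIF4G that lacks the eIF4E-binding part and serves initiation that does not use eIF4E. It ran from 1462 to 1703 CPM before recruitment (median 1599) and from 2353 to 2804 CPM in F5 follicles (median 2453). The stages did not overlap, and the rise was 1.56-fold (edgeR log2 change 0.64 with SE 0.07; adjusted p = 3.32e-06), shared by 6 of 6 birds.

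EIF4A2, one of the eIF4A helicases, measured 1331 to 1807 CPM before recruitment (median 1518) and 1942 to 2363 CPM in F5 follicles (median 2029), without overlap and 1.35-fold higher (edgeR adjusted p = 0.000839). Its close relative EIF4A1 has no row in the table and was not analysed here, so EIF4A2 reads may be uncertain where both genes share sequence. EIF4H, which stimulates the helicase, rose 1.27-fold (adjusted p = 5.70e-05), while EIF4B, with a like task, did not pass (log2 change -0.06, adjusted p = 0.482). EIF4A3, the helicase of the exon junction complex rather than of eIF4F, rose 1.19-fold.

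The scaffold EIF4G1 measured 222 to 268 CPM before recruitment (median 242) and 265 to 313 CPM in F5 follicles (median 289.7). The ranges just overlapped, and the rise was 1.18-fold (edgeR adjusted p = 0.00385) in 6 of 6 birds. EIF4G3, its paralog, rose 1.18-fold. Under library totals neither scaffold changed beyond the test (log2 changes 0.0083 and 0.0048), and EIF4G3 missed the threshold without the Pre-recruitment library of 5826 (adjusted p = 0.053) or 5835 (0.055).

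Other forms of eIF4E did not follow EIF4E. EIF4E2, a cap-binding protein that represses translation with GIGYF2, measured a median of 78.4 CPM before recruitment and 79.6 CPM in F5 follicles (adjusted p = 0.983). EIF4E3 had medians of 16.3 and 13.3 CPM (log2 change -0.20, edgeR adjusted p = 0.252; blocking on bird gave 0.0368), and it was lower in 6 of 6 birds. EIF4E1B, the egg form, was present at 3.10 to 4.85 CPM before recruitment (median 3.55) and at 0.113 to 1.67 CPM in F5 follicles (median 0.939). The stages did not overlap, and the fall was 4.18-fold (log2 change -2.06, SE 0.48, edgeR adjusted p = 0.00169). It rests on small numbers, 86 to 147 counts per Pre-recruitment library and 3 to 50 per F5 library, so counting error is large at the low end.

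**Figure D2:**
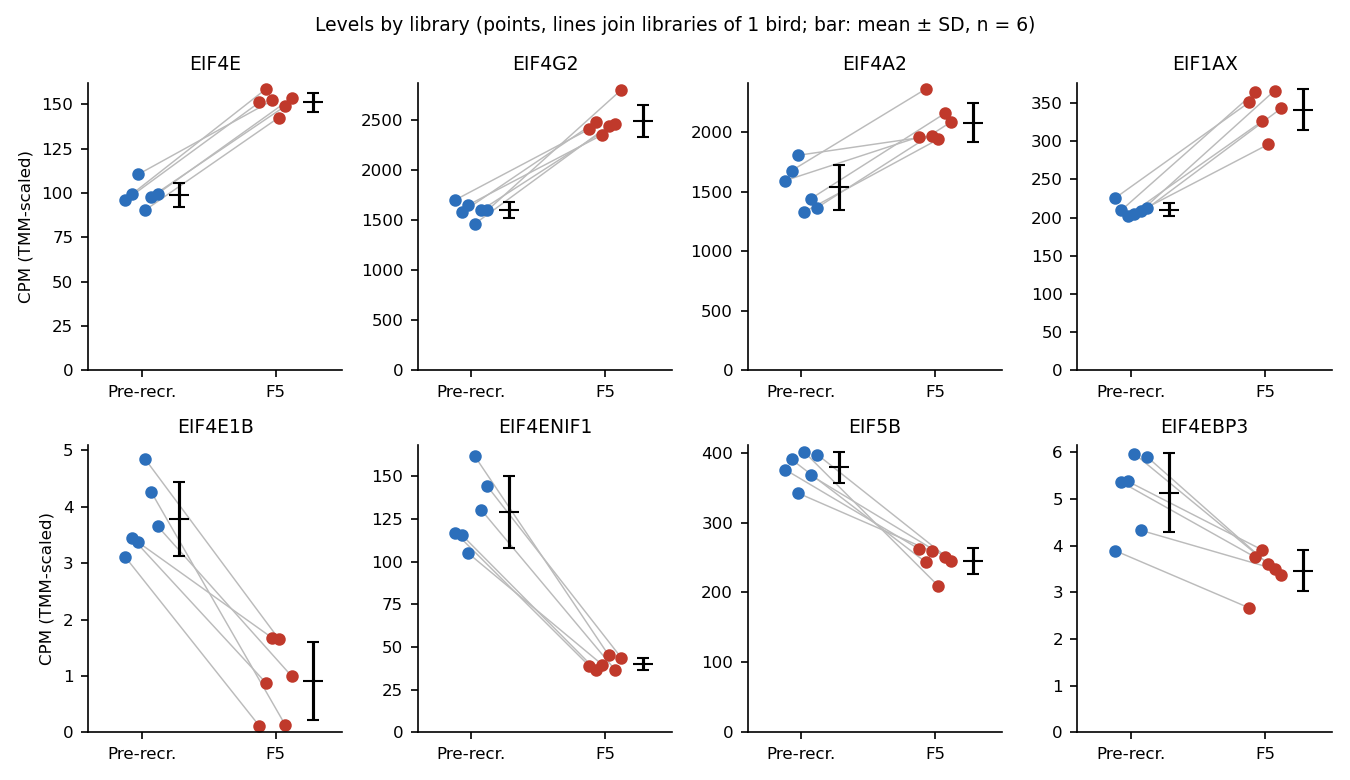
TMM-scaled CPM of 8 initiation factor genes in each library, with Pre-recruitment in blue and F5 in red; grey lines join the libraries of 1 bird and black bars give the mean ± SD (n = 6). EIF4E, EIF4G2, EIF4A2 and EIF1AX were higher in every F5 library than in any Pre-recruitment library, EIF4E1B, EIF4ENIF1 and EIF5B were lower, and EIF4EBP3 fell with a slight overlap.

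Proteins that bind eIF4E were level or lower. Of 4 tested, 2 fell, 2 did not pass and none rose (median log2 change -0.35), and all 4 fell with library totals. EIF4ENIF1 encodes 4E-T, which carries eIF4E into the nucleus and holds it in repressed complexes with stored mRNA. It measured 105 to 162 CPM before recruitment (median 124) and 36.6 to 45.3 CPM in F5 follicles (median 39.3). All F5 libraries lay far below all Pre-recruitment libraries, a 3.21-fold fall (edgeR log2 change -1.68 with SE 0.10; adjusted p = 2.03e-08), shared by 6 of 6 birds. EIF4EBP3 ran from 3.90 to 5.97 CPM before recruitment (median 5.37) and from 2.67 to 3.92 CPM in F5 follicles (median 3.56), a 1.48-fold fall (adjusted p = 0.00309) in 6 of 6 birds, with ranges that just overlapped.

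EIF4EBP1 and EIF4EBP2, the binding proteins that mTOR kinase releases from eIF4E by phosphorylation, changed less. EIF4EBP1 had medians of 249.9 CPM before recruitment and 225 CPM in F5 follicles (edgeR adjusted p = 0.122). It was lower in 5 of 6 birds and passed without the F5 library of 5810 (adjusted p = 0.0172). EIF4EBP2 had medians of 93.5 and 88.6 CPM (adjusted p = 0.528). Both passed as lower with library totals (log2 changes -0.38 and -0.30).

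Between the stages 19 of 22 tested oocyte markers fell, as EIF4E1B and EIF4ENIF1 did, but how libraries ranked within a stage depended on which markers were summed. Without TMM scaling, the whole list of 23 genes summed to 1193 to 1357 CPM of named counts before recruitment and 490.1 to 1311 in F5 follicles. On this list 5835 was the highest F5 library (1311 CPM), although it held little EIF4E1B (0.135 CPM), and 5817 was the highest Pre-recruitment library (1357 CPM), although it held the least EIF4ENIF1 (105 CPM). Without ZP1 and ZP3, which other tissues of the hen also make, the other 20 tested markers were summed after TMM scaling. They came to 321 to 550.3 CPM before recruitment and 10.6 to 121 CPM in F5 follicles. ZP2 weighs heavily in this sum, at 150 to 270 CPM before recruitment and 0.489 to 28.9 CPM in F5 follicles. Leaving ZP1 and ZP3 out was a choice made after values were seen, and the ranks that follow hold for the shorter list only. The F5 libraries with the least of the 20 markers, 10.6 CPM in 5802 and 11.3 CPM in 5835, were also those with the least EIF4E1B, at 0.113 and 0.135 CPM. The other 4 F5 libraries held 53.6 to 121 CPM of the markers and 0.879 to 1.67 CPM of EIF4E1B. Among these, EIF4E1B did not follow the marker sum closely. It measured 1.673 CPM in 5817, with 54.2 CPM of the markers, and 1.658 CPM in 5826, with 121 CPM. EIF4ENIF1 too went only in part with the markers within the F5 stage. Its highest level (45.3 CPM) was in 5826, the library with the highest marker sum (121 CPM). Its lowest level (36.6 CPM) was in 5810, the library with the second highest marker sum (68.3 CPM). Before recruitment the library with most of the 20 markers (5826, 550.3 CPM) had the most EIF4ENIF1 (162 CPM) and the one with least (5817, 321 CPM) the least (105 CPM). EIF4E1B was also highest in 5826 (4.85 CPM) but lowest in 5802 (3.10 CPM), where the markers came to 357 CPM. The part of the oocyte in the falls of these genes was not tested.

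**Figure D3:**
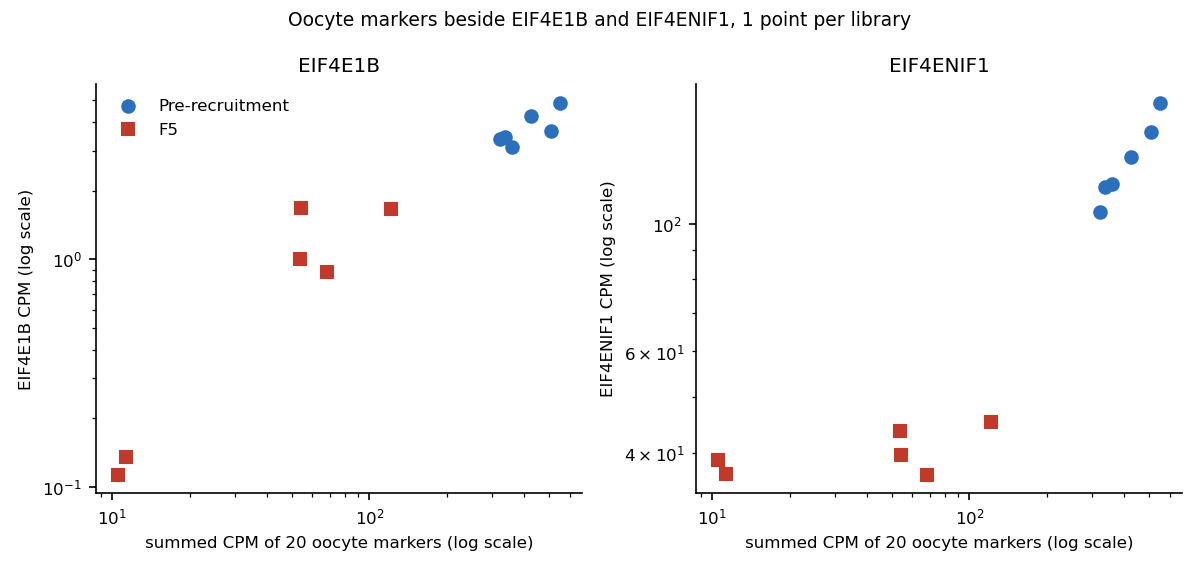
Summed CPM of 20 oocyte and germ cell markers (x axis, log scale) against CPM of EIF4E1B and of EIF4ENIF1 (y axes, log scale), 1 point per library, circles for Pre-recruitment and squares for F5. ZP1 and ZP3 were left out of the sum after values were seen, and ZP2 weighs heavily in it. In EIF4E1B the F5 libraries of 5802 and 5835 stand low on both axes, while in EIF4ENIF1 all F5 libraries lie between 36.6 and 45.3 CPM.

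Ratios between related genes of 1 library do not depend on scaling, and 8 pairs were compared with an exact two-sided permutation test over every assignment of the 12 libraries to stages, adjusted over the 8 pairs. EIF4E over EIF4E2 rose from a median ratio of counts of 1.26 to 1.90, with no overlap (log2 difference 0.62, adjusted p = 0.00433). EIF4E over EIF4E1B rose from 27.9 to 164 (log2 difference 3.24, adjusted p = 0.00433). Its F5 ratios ran from 85.0 to 1148, since EIF4E1B had as few as 3 counts in a library. With 5 in place of 0.5 added to each count, the log2 difference was 2.84. EIF4G1 over EIF4G2 fell from 0.156 to 0.118 (log2 difference -0.40, adjusted p = 0.00433). These 3 ratios, and that of EIF1 over EIF1B, moved the same way in 6 of 6 birds and stood at the smallest p these assignments can give, 0.00216 before adjustment.

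EIF1 over EIF1B rose from 7.24 to 9.54 (log2 difference 0.41, adjusted p = 0.00433), and EIF4EBP1 over EIF4EBP3 from 47.0 to 66.4 with overlap (log2 difference 0.41, adjusted p = 0.0277). The last of these missed the threshold without 7 single libraries, the Pre-recruitment libraries of 5810, 5817, 5826 and 5840 and the F5 libraries of 5802, 5810 and 5835 (adjusted p 0.0554 to 0.0623). EIF4G1 over EIF4G3 did not move by the test (medians 1.72 and 1.72, log2 difference 0.01, adjusted p = 0.87), nor did EIF4EBP1 over EIF4EBP2 (2.65 and 2.57, adjusted p = 0.13) or EIF2A over EIF2D (0.782 and 0.855, adjusted p = 0.203). EIF2A over EIF2D passed without the F5 library of 5840 (log2 difference 0.13, adjusted p = 0.0381). Exact sign changes within birds gave an adjusted p of 0.05 for the 5 called pairs, each at the smallest p that 64 sign changes can give, 0.0312, so under this paired test none of the 5 was under the threshold.

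Start codon selection and subunit joining moved in opposite directions from gene to gene. Of 5 tested members 2 rose, 2 fell and 1 did not pass (median log2 change -0.12), or 1 rose and 3 fell with library totals. EIF1AX, which helps the small subunit to scan for the start codon, measured 202 to 225 CPM before recruitment (median 209) and 296 to 366 CPM in F5 follicles (median 347). There was no overlap, and at 1.62-fold this was the largest rise among the 46 genes (log2 change 0.70, SE 0.06, edgeR adjusted p = 3.88e-07). EIF5B, the GTPase that joins the subunits, measured 342 to 401 CPM before recruitment (median 383) and 209 to 262 CPM in F5 follicles (median 248). It fell 1.55-fold with no overlap (log2 change -0.63, SE 0.07, adjusted p = 1.93e-06), and both genes moved the same way in 6 of 6 birds.

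EIF1, the gatekeeper of start codon choice, and its paralog EIF1B went apart. EIF1 had 276 to 333 CPM before recruitment (median 304) and 306 to 411 CPM in F5 follicles (median 344). It rose 1.14-fold in 5 of 6 birds (edgeR adjusted p = 0.0413), a call that was lost without 8 single libraries, the Pre-recruitment libraries of 5802, 5817, 5826, 5835 and 5840 and the F5 libraries of 5810, 5826 and 5835 (adjusted p 0.0507 to 0.12), and its log2 change was -0.05 with library totals. EIF1B had 38.7 to 43.6 CPM before recruitment (median 41.9) and 32.2 to 37.8 CPM in F5 follicles (median 36.8), a 1.17-fold fall with no overlap (adjusted p = 0.00631). kallisto divides reads of similar genes by estimation, so the split between EIF1 and EIF1B is uncertain to that extent. EIF5, which makes eIF2 hydrolyse its GTP at the start codon, had medians of 835 and 767 CPM (log2 change -0.12, adjusted p = 0.0946). EIF5 passed as lower with DESeq2 (adjusted p = 0.0206) and when 5802 (0.0469) or 5810 (0.0305) was left out before recruitment.

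Genes for eIF2 and the other factors that deliver the initiator tRNA were higher in every case. All 5 tested rose, each in 6 of 6 birds, by log2 changes of 0.20 to 0.38, although with library totals none of the 5 passed and EIF2D and EIF2S2 turned to -0.03 and -0.02. Of all genes tested 32.9% rose, or 18.5% with library totals. EIF2S3, the gamma subunit that binds GTP and the tRNA, measured 236 to 344 CPM before recruitment (median 279) and 346 to 417 CPM in F5 follicles (median 356), without overlap, and rose 1.299-fold (edgeR adjusted p = 0.0025). EIF2S1, the alpha subunit on which the stress kinases act, measured 113 to 132 CPM before recruitment (median 121) and 126 to 165 CPM in F5 follicles (median 144), with overlap, and rose 1.19-fold (adjusted p = 0.00833). EIF2A, a separate protein that can carry initiator tRNA without eIF2, measured 43.5 to 51.4 CPM before recruitment (median 48.8) and 50.6 to 62.9 CPM in F5 follicles (median 59.2), with a slight overlap, and rose 1.22-fold (adjusted p = 0.00147). The beta subunit EIF2S2 and EIF2D, which delivers tRNA in unusual initiation, rose 1.16-fold and 1.15-fold.

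The recharging factor eIF2B was uneven across its 5 subunits, with 1 riser, 2 fallers and 2 that did not pass (median log2 change 0.07), or 0 risers and 3 fallers with library totals. EIF2B5, the catalytic epsilon subunit, measured 74.3 to 94.5 CPM before recruitment (median 83.9) and 61.5 to 79.0 CPM in F5 follicles (median 69.0). It fell 1.21-fold (edgeR adjusted p = 0.0024) in 6 of 6 birds, with overlapping ranges. EIF2B3, the gamma subunit that pairs with it, went the other way, from 32.6 to 42.6 CPM before recruitment (median 37.3) to 42.6 to 55.0 CPM in F5 follicles (median 45.6), the highest early and lowest late library lying almost level. It rose 1.26-fold (adjusted p = 0.0039) in 6 of 6 birds, although its log2 change was 0.10 and not called with library totals. EIF2B4, the delta subunit, measured 28.8 to 38.9 CPM before recruitment (median 35.9) and 24.3 to 37.0 CPM in F5 follicles (median 28.2). Its 1.20-fold fall (adjusted p = 0.0412) was seen in 6 of 6 birds but missed the threshold without 9 single libraries, the Pre-recruitment libraries of 5802, 5817, 5835 and 5840 and every F5 library but that of 5835 (adjusted p 0.0562 to 0.0918). EIF2B1 and EIF2B2 stood at log2 changes of 0.07 and 0.09 (adjusted p 0.379 and 0.178).

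None of the 3 eIF2 kinases in the set passed the test. EIF2AK4, or GCN2, which senses uncharged tRNA, had 74.5 to 89.4 CPM before recruitment (median 78.2) and 79.3 to 99.7 CPM in F5 follicles (median 87.9; edgeR adjusted p = 0.0614). It passed without the F5 library of 5835 (log2 change 0.18, adjusted p = 0.0285). EIF2AK1, the haem-regulated kinase, had 29.0 to 40.0 CPM before recruitment (median 34.4) and 33.0 to 40.3 CPM in F5 follicles (median 38.3; adjusted p = 0.138). EIF2AK2, or PKR, which senses double-stranded RNA, had 27.96 to 34.4 CPM before recruitment (median 31.9) and 32.5 to 35.9 CPM in F5 follicles (median 33.2; adjusted p = 0.161). Their log2 changes, 0.15, 0.15 and 0.11, turned negative with library totals (-0.09, -0.09 and -0.13).

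eIF3, the large complex that organises the small subunit, did not move as a unit. Of 11 tested subunit genes 6 rose, 1 fell and 4 did not pass (median log2 change 0.24). With library totals 1 rose and 5 fell (median 0.01), and EIF3B, EIF3E, EIF3F, EIF3H and EIF3M were no longer called. EIF3C and EIF3K were not analysed here. EIF3J, a loosely attached subunit, measured 180.3 to 196 CPM before recruitment (median 193) and 217 to 288 CPM in F5 follicles (median 276). It rose 1.40-fold with no overlap (log2 change 0.49, SE 0.07, edgeR adjusted p = 2.63e-05). EIF3E measured 229 to 367 CPM before recruitment (median 278) and 322 to 459.7 CPM in F5 follicles (median 360.3). It rose 1.28-fold (adjusted p = 0.0182) in 5 of 6 birds, with overlap. EIF3A, the scaffold of the complex, went down without overlap, from 549 to 638 CPM (median 569) to 407 to 519 CPM (median 479), a 1.23-fold fall (adjusted p = 0.0024) in 6 of 6 birds.

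The other eIF3 risers were EIF3B (1.18-fold), EIF3F, EIF3H and EIF3M (1.20-fold to 1.21-fold). EIF3B was higher in 6 of 6 birds and the other 3 in 5 of 6. EIF3F and EIF3H each missed the threshold without 8 single libraries, the Pre-recruitment libraries of 5802, 5826, 5835 and 5840 and the F5 libraries of 5810, 5826, 5835 and 5840, with adjusted p from 0.0558 to 0.105 for EIF3F and 0.0512 to 0.0785 for EIF3H. EIF3M missed it when any of the Pre-recruitment libraries of 5826, 5835 and 5840 or 5810 at the F5 stage was left out (0.0511 to 0.0554). The genes that did not pass, EIF3D, EIF3G, EIF3I and EIF3L, had log2 changes of -0.18 to -0.03. All 4 passed as lower with library totals. EIF3D passed without the Pre-recruitment library of 5840 (adjusted p = 0.0194), EIF3L without that library (0.0137) or the F5 library of 5810 (0.0357), and EIF3I without either of these or the Pre-recruitment library of 5835 (0.0147 to 0.0236).

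The extremes of many eIF3 genes fell in the same birds. Before recruitment, bird 5810 had the highest level of 8 of the 11 eIF3 genes and bird 5840 the lowest of 8. In F5 follicles bird 5810 again had the highest level of 8, and bird 5817 the lowest of 8. Over all 46 members, 5810 was highest for 13 and 5840 lowest for 17 before recruitment. At the F5 stage 5810 was highest for 22 of the 46 and 5817 lowest for 20. The same counts over all genes are not given. EIF3D, EIF3F, EIF3G, EIF3H, EIF3I, EIF3L and EIF3M were highest in 5810 at both stages. Deviations of single eIF3 genes from the mean log2 CPM of their stage reached -0.39 in the Pre-recruitment library of 5840 and 0.32 in the F5 library of 5810. EIF3A and EIF3B were highest in other birds at both stages, and EIF3J was highest in 5810 before recruitment and in 5835 in F5 follicles. Ribosomal protein genes, summed over 67 genes by symbol after values were seen, showed like extremes. Before recruitment they were highest in 5817 and 5810 (42737 and 41237 CPM) and lowest in 5840 (28426 CPM), and in F5 follicles highest in 5810 (59732 CPM) and lowest in 5817 (41058 CPM). Their part in the eIF3 pattern was not tested, nor was that of TMM scaling, where a lower factor raises every level of a library. The factor was lowest in 5810 (0.859) and highest in 5817 (0.968) among F5 libraries, and highest in 5840 (1.14) before recruitment.

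**Figure D4:**
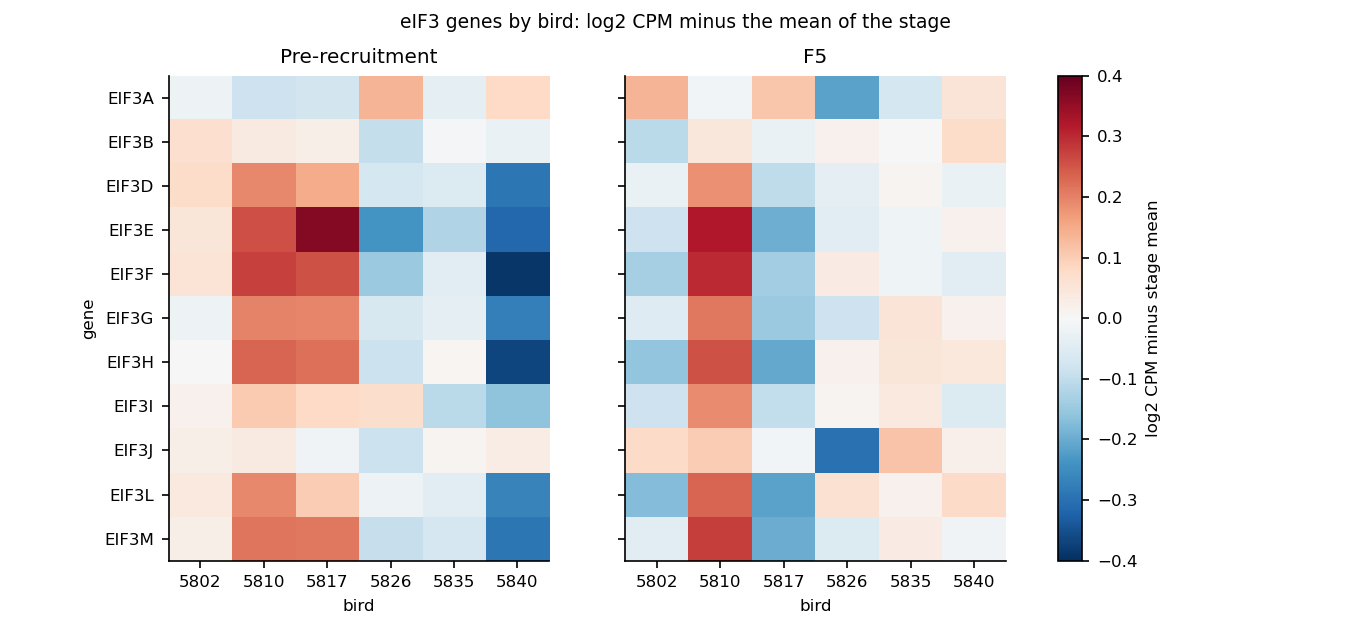
Log2 CPM of each eIF3 gene in each bird minus the mean of its stage (colour scale from -0.4 to 0.4), Pre-recruitment on the left and F5 on the right. Most rows are red in 5810 at both stages and blue in 5840 before recruitment and in 5817 in F5 follicles, whereas EIF3A and EIF3B show other patterns.

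The remaining factors act at the edges of initiation. EIF5A2, an isoform of the protein that carries the modified amino acid hypusine and helps ribosomes past difficult stretches, measured 170.4 to 203 CPM before recruitment (median 181) and 215 to 247 CPM in F5 follicles (median 233). It rose 1.26-fold with no overlap (edgeR adjusted p = 0.000146) in 6 of 6 birds, though with library totals its log2 change was 0.10 and not called. Its close relative EIF5A has no row in the table and was not analysed here, so EIF5A2 reads may be uncertain where both genes share sequence. EIF6, which keeps the large subunit from joining too early, measured 124 to 149 CPM before recruitment (median 134) and 136 to 162 CPM in F5 follicles (median 146; adjusted p = 0.0572). It passed when 5802 was left out at either stage (0.0458 before recruitment, 0.0499 at F5) or 5817 at F5 (0.0328), and turned to a log2 change of -0.10 with library totals.

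Variation within a stage was small for most of the set. The coefficient of variation of CPM over the 6 birds had a median of 6.96% before recruitment and 8.18% in F5 follicles across the 46 genes, beside 11.7% and 12.3% across all genes tested. The members and all genes were not matched for expression level, so these medians do not set the members apart from other genes of like level. The coefficient was under 20% at both stages for 44 of the 46. EIF4E1B and EIF4E3, both of low level, passed 20% in F5 follicles (76.0% and 22.1%). As a share of the counts of all 46 genes, EIF4G2 went from 14.4% ± 0.629 to 19.2% ± 1.12 and EIF4A2 from 13.8% ± 1.11 to 16.0% ± 0.560, while EIF5 went from 7.52% ± 0.626 to 5.89% ± 0.124 (SD, n = 6).

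Partners of these factors outside the set were mixed. In a list of initiation partners and mRNA-binding regulators, 11 of 31 tested rose and 12 fell (median log2 change -0.08), or 5 and 16 with library totals. For these lists too, 32.9% of all genes tested rose and 32.6% fell, or 18.5% and 46.4% with library totals, and no list was tested against other genes. NCBP1, a subunit of the nuclear cap-binding complex, rose 1.89-fold. PDCD4, which blocks the eIF4A helicase, fell 1.82-fold, CPEB4, a regulator of polyadenylation, 1.84-fold, and PABPC4, a poly(A)-binding protein, 1.56-fold, with edgeR adjusted p-values from 5.42e-08 to 2.75e-06 over these 4 genes. CPEB1, which in frog oocytes holds stored mRNA together with 4E-T and eIF4E1B, averaged 44.2 ± 9.01 CPM before recruitment and 9.33 ± 4.07 CPM at the F5 stage (SD over 6 birds), a 4.74-fold fall with edgeR (adjusted p = 6.15e-06). CPEB1 was picked for this comparison after its values were seen. DAZL, a germ cell RNA-binding protein that is also on the oocyte list, fell 6.26-fold (edgeR adjusted p = 0.000808). Like CPEB1, DAZL was not among the 4 genes of this list with the smallest adjusted p.

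Genes of mTOR signalling, the pathway that phosphorylates eIF4E-binding proteins, fell in 13 and rose in 6 of 27 tested (median log2 change -0.21). AKT1 rose 1.44-fold and RHEB, the activator of mTOR, 1.36-fold, while LAMTOR3, part of the lysosomal anchor, fell 1.70-fold and RPTOR, the mTORC1 adaptor, 1.34-fold. Under library totals 4 of the 27 rose and 19 fell.

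Of 12 tested genes of the integrated stress response, which phosphorylated eIF2 sets off, 6 rose and 4 fell (median log2 change 0.28), or 5 and 5 with library totals. ATF4, the transcription factor of this response, rose 1.95-fold, its target ASNS, asparagine synthetase, 2.76-fold and CEBPG, a partner of ATF4, 1.41-fold. VLDLR, the yolk receptor of the hen oocyte that is also a known target of the response, fell 9.51-fold. Polyamine and hypusine genes showed 4 rises and 1 fall of 9 tested, which turned to 3 rises and 4 falls with library totals. SRM, spermidine synthase, rose 1.78-fold, AMD1 1.56-fold and SMS 1.31-fold (not called with library totals), while DOHH, the enzyme that completes hypusine on eIF5A, fell 1.34-fold.

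Elongation and termination factors rose in 5 and fell in 2 of 10 tested (median log2 change 0.13), which turned to 1 and 4 with library totals (median -0.11). EEFSEC, the selenocysteine elongation factor, fell 1.48-fold, EEF2K, the kinase that restrains EEF2, rose 1.47-fold, and ABCE1 and GSPT2, for ribosome recycling and termination, rose 1.198-fold and 1.15-fold but were not called with library totals (log2 changes 0.025 and -0.034). Of the mitochondrial initiation genes, MTIF3 rose 1.51-fold, MTFMT fell 1.23-fold and MTIF2 did not pass (adjusted p = 0.281). Over all 92 genes of these lists, 33 rose and 33 fell, or 19 and 49 with library totals.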

How the data were processed

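The values were estimated counts per gene from kallisto, deposited by the authors, and every value in the table was whole. Per the submitters' processing notes, the builds were GRCg6a and galGal6 and the tools included kallisto 0.44.0 and bcl2fastq 2.19. A row with no gene name, holding 9.02% ± 0.515 of counts in Pre-recruitment and 6.6% ± 0.215 in F5 libraries (SD, n = 6), entered neither library sizes nor tests.

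edgeR 4.0.16 was run in R 4.3.3 with TMM scaling, its expression filter (minimum count 10), a robust quasi-likelihood test of stage over all 12 libraries and Benjamini-Hochberg adjustment over 11195 genes. Standard errors were taken from the log2 change and the F statistic. Alternatives were library totals, DESeq2 1.42.0, other filters, the bird as a block and each library left out. The same birds gave both stages. Deviations from the stage means correlated by 0.129 to 0.388 within a bird and by -0.298 to 0.302 between different birds, ranges that overlap. Members and lists were chosen with earlier results of these data known. Genes given in full were up to 3 called members of each role with the largest change and a panel of core factors, and in the other lists up to 4 with the smallest adjusted p. CPEB1 and DAZL were named beyond that rule. Intervals are not given for counts, and all 46 symbols were found in RefSeq GRCg7b, used for names only. kallisto divides reads among similar genes by estimation, so close paralogs are uncertain.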

Additional observations from a re-analysis of the deposited data

Results flagged for a closer look

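Of 110 groups of 6 libraries examined for a sample far from the other 5, 9 had one, and chance gives about 1 in 20. In F5 follicles, the library of 5810 stood apart as the highest for EIF2S3 (417 CPM), EIF3D (293 CPM), EIF3E (459.7 CPM) and EIF3F (199 CPM). The F5 library of 5826 stood apart as the lowest for EIF3J (217 CPM), EIF5B (209 CPM) and the share of named counts in the 46 genes (1.18%). The F5 library of 5840 was far above the others for EIF4G2 (2804 CPM) and far below them for EIF2A (50.6 CPM).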

How the results depend on the processing

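With library totals in place of TMM, 6 members rose and 19 fell, 19 genes of the other lists rose, and the members' median log2 change was -0.088. Under that scaling the log2 change turned negative for EIF1 (-0.05), EIF2AK1 (-0.090), EIF2AK2 (-0.13), EIF2AK4 (-0.086), EIF2B1 (-0.16), EIF2B2 (-0.14), EIF2D (-0.033), EIF2S2 (-0.023), EIF4E2 (-0.23) and EIF6 (-0.10). EIF4E2, which was level, was also below 0 with DESeq2 (-0.0028), the CPM filter (-0.0045) and the replicate block (-0.0016), and ran from -0.049 to 0.044 with single libraries left out. EIF3G ran from -0.11 to 0.0078. DESeq2 and the bird block each gave 22 members higher and 9 lower; the block added EIF4E3 and DESeq2 added EIF5, and neither changed another member's call.

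Leaving out 1 library gave 17 to 23 members higher and 7 to 10 lower, 29 to 34 other genes higher and 32 to 34 lower, and a members' median of 0.11 to 0.16. Without mitochondrially encoded genes the members' share was 1.34% in Pre-recruitment and 1.32% in F5 libraries. With the replicate block, whose differences equal the unpaired ones by construction, all 5 called ratios lost their calls at an adjusted p of 0.05, each at the smallest p that sign changes within birds allow (0.0312 before adjustment): EIF1 over EIF1B (0.41), EIF4E over EIF4E2 (0.62), EIF4E over EIF4E1B (3.24), EIF4G1 over EIF4G2 (-0.40) and EIF4EBP1 over EIF4EBP3 (0.41). With single libraries left out, EIF4EBP1 over EIF4EBP3 ran from 0.35 to 0.50, EIF2A over EIF2D from 0.065 to 0.13 and EIF4G1 over EIF4G3 from -0.034 to 0.046. The cause of these shifts was not tested. EIF4E1B had as few as 3 counts in a library, which limits its fold.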

Other observations

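The F5 library of bird 5810 had the highest level of 22 of the 46 genes, and the F5 library of bird 5817 the lowest of 20. Before recruitment the library of 5840 had the lowest level of 17. These levels are TMM-scaled, and a lower TMM factor raises every level of a library. Among F5 libraries the factor was lowest in 5810 (0.859) and highest in 5817 (0.968). Among Pre-recruitment libraries it was highest in 5840 (1.14). The part of scaling in these extremes was not tested, and the same counts over all genes are not given.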
